A study of Mus musculus with 6 samples.

Results

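The cytosolic ribosomal protein genes were followed in whole ovaries of mice at postnatal day 14, measured by RNA sequencing. Members were taken by symbol: Rpl or Rps with a number and at most the letter a, l or x after it, together with Rplp0, Rplp1, Rplp2 and Rpsa, and with a mean of at least 0.5 FPKM over the 6 libraries. FPKM, the unit of the deposited values, corrects the number of fragments for the length of the transcript and the size of the library. The symbols matched 80 of the 37924 genes of the table, and 79 of these were among the 14934 genes that met the mean limit. Of the 79 members tested, 47 encode proteins of the large subunit and 32 encode proteins of the small subunit. Of the members tested, Rpl10l had the lowest mean, 1.86 FPKM, and Rpl3l lay below the limit with a mean of 0.0381 FPKM.

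The conditional knockout (cKO) group consisted of 3 pools from mice homozygous for a floxed allele and carrying Gdf9iCre. The control group consisted of 3 pools from mice homozygous for that floxed allele and lacking Cre, so both groups carried the allele. In Gdf9iCre the promoter of Gdf9, an oocyte gene, drives Cre recombinase, which directs the deletion to oocytes, whereas every library was made from the whole ovary. Each pool combined 1 ovary from each of 3 mice, with equal total RNA between pools, and the strain label was C57BL/6J/129S7/SvEvBrd. The design addresses how the ovarian transcriptome responds to loss of the floxed gene from oocytes. The library numbers follow the order of deposit and do not pair libraries between groups.

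Ribosomal proteins surround and stabilise the ribosomal RNA of both subunits, and a ribosome needs about equal numbers of nearly all of them. In mammals their mRNAs carry a pyrimidine-rich start that lets the mTOR kinase control their translation, and their genes are read at a high rate in growing cells. In the ovary, growing oocytes build up ribosomes as a maternal store, and dividing granulosa cells need them for growth. Whole-ovary RNA holds the ribosomal protein transcripts of all these cells together, and in it fewer cells of a type and less RNA per cell cannot be told apart.

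The estimated depth was 22.5 to 24.9 M fragments in cKO libraries and 19.6 to 22.7 M in control libraries (M for 1e6), and 13170 to 13649 genes reached 1 FPKM. Markers of the ovary were present in all libraries, with Zp3, an egg coat gene, at 388 to 614 FPKM in cKO libraries and 265 to 299 FPKM in control libraries. The library cKO 3 stood apart in the neutrophil markers S100a8, S100a9 and Ngp, whose summed level was 558 FPKM there and at most 0.899 FPKM in each other library. Transcripts of the mitochondrial genome made up 7.31%, 13.9% and 10.7% of the summed FPKM in cKO 1 to 3, against 11.9%, 13.8% and 14.2% in control 1 to 3. Of all genes tested, 4.33% passed the test between the groups (limma, Benjamini-Hochberg adjusted p below 0.05), with 334 genes higher and 312 lower in cKO libraries.

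As a group, ribosomal protein transcripts were slightly lower in cKO 1 and cKO 2 than in any control, and not in cKO 3. Their summed level was 103831, 107738 and 122515 FPKM in cKO 1 to 3, against 126823, 128640 and 118287 FPKM in control 1 to 3. The cKO libraries averaged 111361 ± 9855 FPKM and the control libraries 124583 ± 5528 FPKM (SD, n = 3 each), a ratio of 0.894 that became 1.01 under quantile normalisation. The groups overlapped, because cKO 3 lay above control 3. As a share of the summed FPKM the genes held 18.7%, 19.3% and 20.5% in cKO 1 to 3, against 20.7%, 20.6% and 19.9% in control 1 to 3. With the mitochondrial-genome transcripts taken out of the total, the shares were 20.2%, 22.5% and 23.0% in cKO 1 to 3, against 23.5%, 23.9% and 23.2% in control 1 to 3. On that denominator the 3 cKO libraries were the lowest 3 of the 6, with cKO 3 close under control 3.

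**Figure D1:**
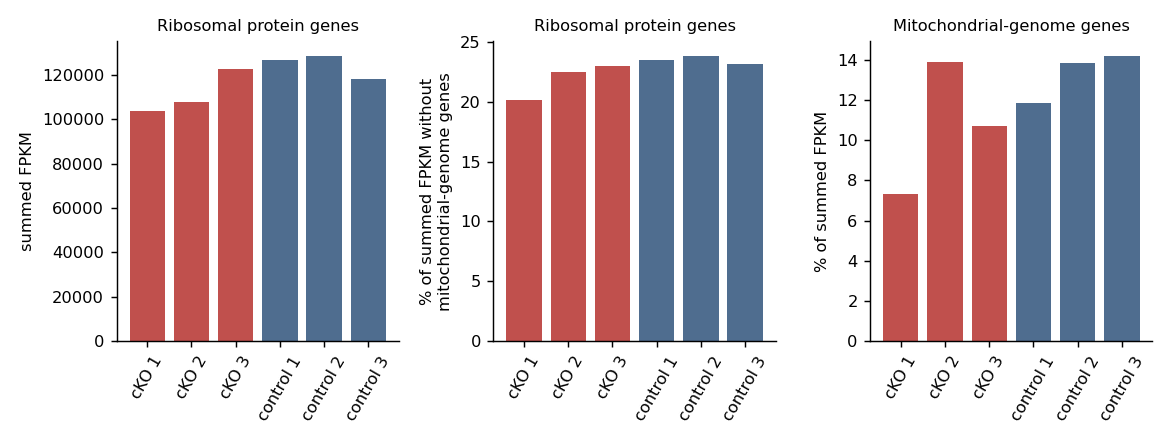
Bars give, for each library, the summed FPKM of the ribosomal protein genes (left), their percentage of the summed FPKM without mitochondrial-genome transcripts (middle) and the percentage held by mitochondrial-genome transcripts (right). Red bars are cKO 1 to 3 and blue bars are control 1 to 3; cKO 1 is the lowest in each panel, and cKO 3, at 122515 FPKM, lies above control 3, at 118287 FPKM.

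Both subunits had nearly the same difference between the groups. The summed small subunit level was 0.825, 0.847 and 0.830 of the summed large subunit level in cKO 1 to 3, against 0.823, 0.830 and 0.845 in control 1 to 3. These ratios overlapped between the groups and averaged 0.834 in cKO libraries and 0.833 in control libraries. Leaving out the paralog members described further on, the 45 large subunit genes had a median log2 change of -0.17 and the 31 small subunit genes a median of -0.17.

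No single ribosomal protein gene passed the test, and nearly all of them measured slightly lower in cKO libraries in the values as deposited, though not after quantile normalisation. None of the 79 members reached an adjusted p below 0.05 in limma, where 4.33% of all genes tested did (2.24% higher and 2.09% lower in cKO libraries). The log2 change, cKO over control on log2(FPKM + 1), was below 0 for 77 of the 79 members against 41.5% of all genes tested, but for 30 of the 79 under quantile normalisation. That normalisation gives all libraries the same set of values. With 68 members among the 100 genes of highest mean, it can remove a shift that they share. The median log2 change was -0.17 over the 79 members and 0.05 over all genes tested. At an unadjusted p below 0.05 there were 12 members (15.2% of the 79), beside 24.3% of all genes tested in either direction. All 12 were lower in cKO libraries, beside 9.80% of all genes tested that were lower at this limit and 14.5% that were higher. Median centring and array weights each gave 1 passing member, Rps27l.

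The members outside the paralogs lay within a narrow band. Their 76 log2 changes ran from -0.29 to -0.02, with an SD of 0.05 between genes, while the median standard error of a single change was 0.104. The 70 other genes with a mean of at least 500 FPKM had a median log2 change of -0.22, with a range of -1.16 to 4.09. In 21 of the 79 members (26.6%) all cKO libraries lay below all control libraries, beside 12.0% of all genes tested. Of these 21, 10 were large subunit and 11 small subunit genes. In 1 member, Rpl10l, all cKO libraries lay above all control libraries, beside 18.0% of all genes tested.

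**Figure D2:**
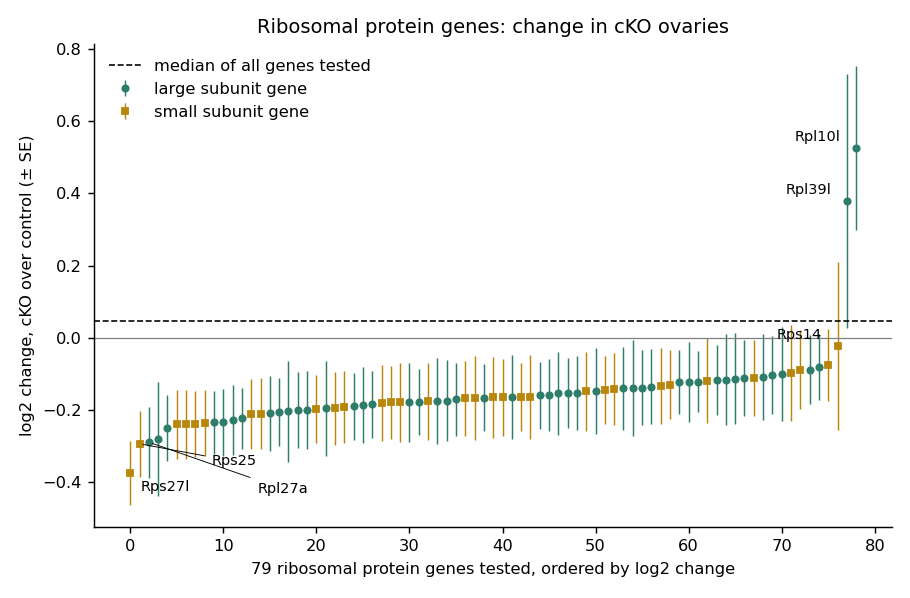
Each point is 1 of the 79 ribosomal protein genes tested, ordered along the horizontal axis by its log2 change of cKO over control on log2(FPKM + 1), with bars of ± 1 standard error from limma. Circles are large subunit and squares small subunit genes; 77 points lie below 0, though 30 do under quantile normalisation, and the dashed line is the median of all genes tested, 0.05.

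The libraries carried a shared pattern in which cKO 1 and cKO 2 were low and the other 4 were closer together. Among the 76 members outside the paralogs, the lowest library was cKO 1 in 42 and cKO 2 in 34. Their median ratio to the control mean was 0.839, 0.847 and 0.978 in cKO 1 to 3, against 1.02, 1.03 and 0.948 in control 1 to 3. Both cKO 1 and cKO 2 lay below every control in 65 of the 76. By contrast cKO 3 lay below every control in 21, and it exceeded control 3 in 50. The coefficient of variation between libraries had a median of 9.10% in the cKO group and 4.63% in the control group.

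The number of members with a low unadjusted p depended on which libraries entered the fit. With cKO 3 left out, 48 of the 79 members (60.8%) had an unadjusted p below 0.05, beside 24.3% of all genes in that fit. With cKO 3 and control 3 both left out, a choice made after the values were seen, 62 members (78.5%) did, beside 25.8% of all genes. Among the 76 members outside the paralogs, cKO 3 was the highest cKO library in 71 and control 3 the lowest control in 58. Leaving both out therefore widens the members' difference by construction, and the higher count is no support for it. Without cKO 1 the count was 2 members beside 19.0% of all genes, and without cKO 2 it was 3 beside 24.2%. Without control 1, 2 or 3 it was 2, 2 and 6 members, shares of 2.53%, 2.53% and 7.59%, beside 16.6%, 15.2% and 23.9% of all genes. No member had an adjusted p below 0.05 in any of these fits. The median log2 change of the members was -0.28 with cKO 3 and control 3 left out, and -0.12 to -0.24 with any 1 library left out.

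**Figure D3:**
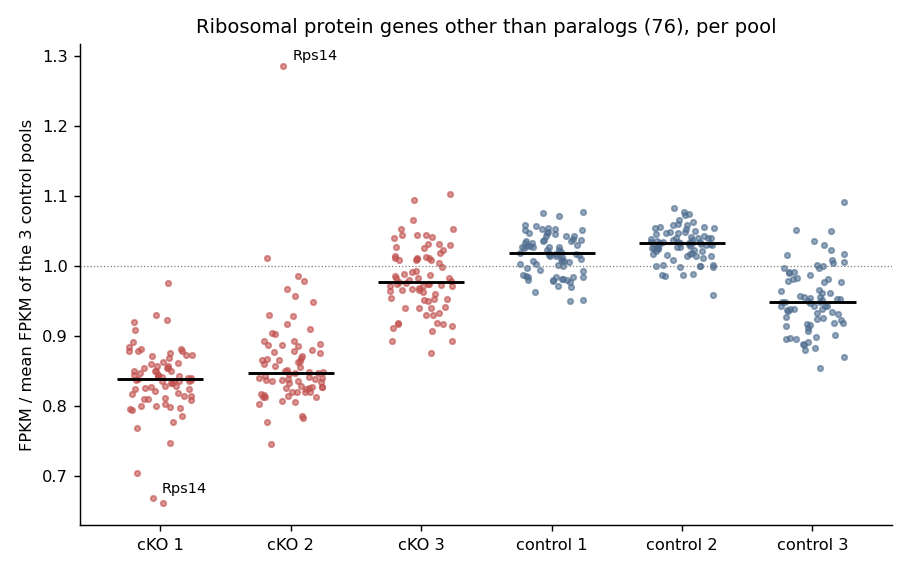
Each point is 1 of the 76 members outside the paralogs in 1 library, as its FPKM divided by the mean FPKM of the 3 control pools; black lines are the median ratio per library. The medians are 0.839, 0.847 and 0.978 in cKO 1 to 3 (red) and 1.02, 1.03 and 0.948 in control 1 to 3 (blue), and Rps14 is marked where it departs from the other members.

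Markers of other cells also differed between libraries, not all in the pattern of the members. The 5 red cell markers, 4 globin genes and Alas2, the first enzyme of haem synthesis in red cells, summed to 1277, 924 and 4174 FPKM in cKO 1 to 3, against 6277, 3988 and 2021 FPKM in control 1 to 3. They were low in cKO 1 and cKO 2, intermediate in control 3 and high in the other 3 libraries, and none of the 5 passed the test or was at 0 in any library. Neutrophil markers were high in cKO 3 alone, where none was at 0, while Ngp was at 0 in the other 5 libraries. Of 20 proliferation genes, 8 fell (40%), beside 2.09% of all genes tested. All 20 had a log2 change below 0, beside 41.5% of all genes tested, with a median of -0.52. Top2a, the topoisomerase of dividing cells, measured 47.2, 42.8 and 41.3 FPKM in cKO 1 to 3, against 83.0, 80.0 and 79.2 FPKM in control 1 to 3 (log2 change -0.87, limma adjusted p = 0.00918).

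Markers of the main ovarian cell types differed as well, beside 2.09% of all genes tested that fell and 2.24% that rose. Of 8 granulosa cell markers, 3 fell (Gja1, Inhbb and Inha), and the summed level, most of it from Inha and Gja1, was 1926 to 2311 FPKM in cKO libraries and 2989.7 to 3806 FPKM in control libraries. Of the other granulosa cell markers, 3 had log2 changes below 0 and 2 above 0 without passing, among them Foxl2, a transcription factor of granulosa cells (log2 change 0.43, higher in all cKO libraries). Of 8 oocyte markers, 2 rose (Zp2 and Zp3), with sums of 1169.9 to 1816 FPKM in cKO libraries and 894 to 1025 FPKM in control libraries. Of the other oocyte markers, 3 had log2 changes above 0 and 3 below 0 without passing, the lowest being Bmp15, a growth factor secreted by oocytes (log2 change -0.67, groups overlapping). Of 5 stroma markers, 1 rose (Pdgfra), with sums of 864 to 1216 FPKM in cKO libraries and 648 to 768 FPKM in control libraries. Of 3 adipose markers, 1 rose (Plin1), and the other two had log2 changes below 0 without passing. Of these, Cfd, the secreted protease adipsin, measured 0.561, 1.16 and 0.894 FPKM in cKO 1 to 3, against 1.74, 2.31 and 14.0 FPKM in control 1 to 3 (log2 change -1.47), and Adipoq had a log2 change of -0.59. No theca and steroid, surface epithelium, endothelium or macrophage and leukocyte marker passed out of 4 in each list. No oocyte, granulosa or stroma marker was at 0 in any library. The part of these cell types, of the red cells, of the neutrophils or of dividing cells in the ribosomal protein values was not tested.

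The most abundant member was Rplp1, an acidic protein of the stalk that recruits elongation factors, encoded at chr9:61913284-61914542 (mm10, minus strand). It measured 3111, 3221 and 3702 FPKM in cKO 1 to 3, against 3796, 3783 and 3242 FPKM in control 1 to 3, which put it at rank 10 among all genes. The groups overlapped, since cKO 3 lay above control 3 (log2 change -0.11, SE 0.12, limma adjusted p = 0.621). Its stalk partner Rplp2 measured 1306, 1334 and 1645 FPKM in cKO 1 to 3, against 1603, 1669 and 1457 FPKM in control 1 to 3, and Rplp0, which anchors both to the ribosome, measured 1463, 1577 and 1956 FPKM in cKO 1 to 3, against 1842, 1846 and 1637 FPKM in control 1 to 3. In all 3 stalk genes cKO 3 exceeded control 3. Rplp2 and Rplp0 were picked for their role after their values were seen.

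The next most abundant large subunit genes were Rpl23a and Rpl41. Rpl23a, which lies at the exit of the tunnel for the growing chain, measured 2848, 2793 and 3272 FPKM in cKO 1 to 3, against 3555, 3457 and 3213 FPKM in control 1 to 3 (log2 change -0.20, SE 0.11, limma adjusted p = 0.306). Rpl41, which encodes a very short basic peptide, measured 1857, 2469 and 2671 FPKM in cKO 1 to 3, against 2937, 3013 and 2479.6 FPKM in control 1 to 3 (log2 change -0.28, SE 0.16, limma adjusted p = 0.326). Rpl41 was lowest in cKO 1 by a wide margin, and its groups overlapped in cKO 3 and control 3. Rpl23a also overlapped, with cKO 3 just above control 3.

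Among small subunit genes the highest means belonged to Rps24 and Rps29. Rps24, whose human counterpart is among the genes mutated in Diamond-Blackfan anaemia, measured 2439, 2339 and 2714 FPKM in cKO 1 to 3, against 2858, 2950.3 and 2758 FPKM in control 1 to 3 (log2 change -0.20, SE 0.10, limma adjusted p = 0.285). Its groups did not overlap, but they came within a small distance at cKO 3 and control 3. Rps29, a small zinc-binding protein, measured 2305, 2240.4 and 2738 FPKM in cKO 1 to 3, against 2777, 2788 and 2578 FPKM in control 1 to 3 (log2 change -0.17, SE 0.11, limma adjusted p = 0.413), and its groups overlapped. Per unit of length, small subunit genes had a higher median level than large subunit genes, at 1798 FPKM over 31 genes and 1308 FPKM over 45 genes.

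The lowest log2 changes among the standard members belonged to Rps25 and Rpl27a. Rps25, a small subunit protein used by some viral and cellular internal ribosome entry sites, measured 863, 957 and 1012 FPKM in cKO 1 to 3, against 1134, 1177 and 1156 FPKM in control 1 to 3. All cKO values lay below all control values (log2 change -0.29, SE 0.09, limma adjusted p = 0.108). Rpl27a, a large subunit protein, measured 881, 892 and 1053 FPKM in cKO 1 to 3, against 1131, 1176 and 1139 FPKM in control 1 to 3, again with no overlap (log2 change -0.29, SE 0.10, limma adjusted p = 0.131). Exons of Rps25 overlap those of Ccdc84 and Trappc4 on the other strand, and the strand setting of the counting is not given in the sources used here.

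The other members with an unadjusted p below 0.05 included Rpl30, Rpl35a, Rpl22, Rps13, Rps15a, Rpl39, Rps27a and Rpl37, beside the paralog Rps27l. These were named after their values were seen. Rps15a measured 1599, 1636 and 1809.8 FPKM in cKO 1 to 3, against 1965, 1982 and 1991 FPKM in control 1 to 3, the last 3 values lying very close together (log2 change -0.24, SE 0.09, limma adjusted p = 0.172). Rps27a, a fusion of ubiquitin with a small subunit protein, measured 1284, 1207 and 1433 FPKM in cKO 1 to 3, against 1542, 1577 and 1507 FPKM in control 1 to 3, with no overlap and an adjusted p of 0.182 in limma. Rpl37 measured 513, 528 and 616 FPKM in cKO 1 to 3, against 663, 662 and 612 FPKM in control 1 to 3, and overlapped only between cKO 3 and control 3. Its profile followed the mean profile of the 76 members with r = 0.994 over 6 libraries.

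Most members followed that mean profile, and Rps14 did so least. The correlation with the mean profile, which contains each gene itself, had a median of 0.922 over the 76 members, and 66 exceeded 0.8; all points share the same 6 libraries and their scaling. Rps14, whose human counterpart is lost from a single copy in a form of myelodysplastic syndrome, measured 1413, 2721 and 2314 FPKM in cKO 1 to 3, against 2194, 2291 and 1861 FPKM in control 1 to 3 (r = 0.384 with the mean profile). It was low in cKO 1 and highest of all libraries in cKO 2, and its coefficient of variation was 31.1% in the cKO group. Its log2 change was -0.02 (SE 0.23, limma adjusted p = 0.962), and it took the other sign without cKO 1, at 0.25. Rpl9 was also far lower in cKO 1 than elsewhere, at 1292, 1857 and 1687 FPKM in cKO 1 to 3, against 1799, 1895 and 1817 FPKM in control 1 to 3. Rps14 and Rpl9 were singled out after their values were seen.

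Paralogs of standard ribosomal protein genes behaved less uniformly. Rps27l, a paralog of Rps27, lies at chr9:66946086-66949516 (mm10, plus strand). It measured 160.4, 167 and 181 FPKM in cKO 1 to 3, against 238, 219 and 203 FPKM in control 1 to 3, with no overlap (log2 change -0.38, SE 0.09, limma adjusted p = 0.0604). This was the smallest adjusted p of the 79 members. Its partner Rps27 measured 1538, 1754 and 1876 FPKM in cKO 1 to 3, against 1872, 1970.5 and 1945 FPKM in control 1 to 3 (log2 change -0.17). Rps27l was 10.4%, 9.55% and 9.63% of Rps27 in cKO 1 to 3, against 12.7%, 11.1% and 10.5% in control 1 to 3, so the ratios came close at cKO 1 and control 3 without overlapping. The coding sequences of the pair are 76.2% identical, with a longest shared run of 11 bases.

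Rpl39l and Rpl10l are paralogs best known from testis, where they are made in spermatogenic cells of the mouse. Rpl39l measured 12.5, 7.26 and 7.79 FPKM in cKO 1 to 3, against 4.33, 5.18 and 12.5 FPKM in control 1 to 3, so that control 3 lay at about the level of cKO 1 (log2 change 0.38, SE 0.35, limma adjusted p = 0.550). Its X-linked partner Rpl39 measured 734, 758 and 806 FPKM in cKO 1 to 3, against 859, 865 and 985 FPKM in control 1 to 3, with no overlap and an adjusted p of 0.176 in limma. Rpl39l was thus at 0.957% to 1.70% of Rpl39 in cKO libraries and at 0.505% to 1.27% in control libraries. The coding sequences are 85.0% identical and share a run of 38 bases, so fragments could be divided between them in the authors' values. At these levels any such division bears on Rpl39l far more than on Rpl39.

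Rpl10l was the member with the largest positive log2 change. It measured 2.04, 2.16 and 2.84 FPKM in cKO 1 to 3, against 0.616, 1.72 and 1.81 FPKM in control 1 to 3 (log2 change 0.53, SE 0.23, limma adjusted p = 0.210). All cKO values lay above all control values, and the 2 closest were those of cKO 1 and control 3. At the estimated depths these levels stand for 48.6, 49.7 and 72.4 fragments in cKO 1 to 3, against 14.3, 38.0 and 36.2 fragments in control 1 to 3. The partner Rpl10, another X-linked gene, measured 2053, 1909 and 2241 FPKM in cKO 1 to 3, against 2421, 2445 and 2188 FPKM in control 1 to 3 (log2 change -0.19). The pair is 84.7% identical in coding sequence with a shared run of 23 bases, and Rpl10l was at 0.0992% to 0.127% of Rpl10 in cKO libraries and at 0.0255% to 0.0826% in control libraries, so any fragments divided between the 2 genes bear on Rpl10l far more than on Rpl10. Rpl3l, the striated muscle paralog of Rpl3, measured 0.0486, 0.0504 and 0.0912 FPKM in cKO 1 to 3, against 0, 0.0381 and 0 FPKM in control 1 to 3, and was not tested.

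**Figure D4:**
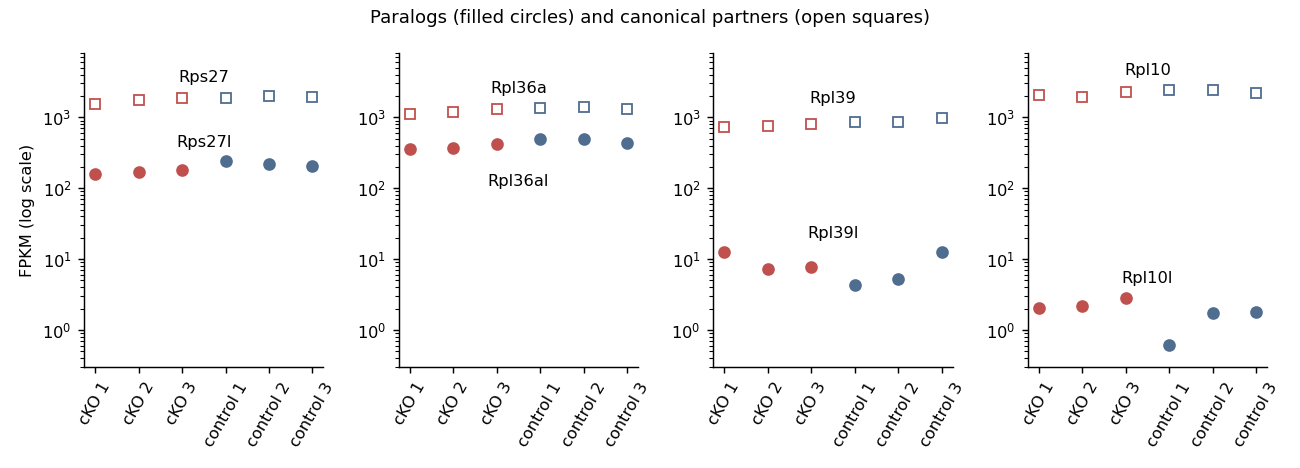
FPKM on a log scale in each library for Rps27l, Rpl36al, Rpl39l and Rpl10l (filled circles) and their partners Rps27, Rpl36a, Rpl39 and Rpl10 (open squares), with cKO libraries in red left of control libraries in blue. Rps27l is at 160.4 to 181 FPKM in cKO libraries and 203 to 238 FPKM in control libraries, whereas Rpl39l overlaps between the groups.

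Related genes outside the symbol rule had log2 changes of either sign. Rpl36al, a copy of the X-linked Rpl36a, measured 360.4, 372 and 416 FPKM in cKO 1 to 3, against 492, 493 and 439 FPKM in control 1 to 3 (log2 change -0.31, SE 0.09, limma adjusted p = 0.0982), with no overlap. Rpl36a measured 1128, 1169 and 1313 FPKM in cKO 1 to 3, against 1343, 1383 and 1319 FPKM in control 1 to 3, and the pair is 87.7% identical in coding sequence. Rpl22l1, whose partner Rpl22 represses it in mouse cells, measured 257, 252 and 280.4 FPKM in cKO 1 to 3, against 283, 321 and 316 FPKM in control 1 to 3 (log2 change -0.22, limma adjusted p = 0.173). Rpl22 itself measured 688, 684 and 762 FPKM in cKO 1 to 3, against 813, 863 and 814 FPKM in control 1 to 3, so both genes of the pair were lower in all cKO libraries. Rpl7l1 had a log2 change of -0.08. The gene listed as Rps4y2, which GENCODE M21 names Rps4l and annotates as a transcribed pseudogene, had a log2 change of 0.11.

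Further genes linked to the ribosome were also below 0 without passing. Rsl24d1, a ribosome assembly factor resembling Rpl24, measured 48.3, 43.8 and 45.8 FPKM in cKO 1 to 3, against 53.8, 53.7 and 54.0 FPKM in control 1 to 3 (log2 change -0.22, SE 0.07, limma adjusted p = 0.109). Its groups did not overlap. Gnb2l1, which encodes the small subunit scaffold RACK1, had a log2 change of -0.16. Fau, a fusion of a ubiquitin-like protein with a ribosomal protein, had a log2 change of -0.04.

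The members share features of gene structure. All 80 were protein coding in GENCODE M21, which the symbol rule favours, because it leaves out the 218 rows named as ribosomal protein pseudogenes. The members lay on 19 chromosomes, 14 of the 80 on chromosome 7. Their transcripts were short, with a median length of 712 bases beside 2026 bases over all genes tested. An intron held a small nucleolar RNA (snoRNA), a guide for ribosomal RNA modification, in 16 of the 79 members (20.3%), beside 1.28% of all genes tested. Rpl13a, Rpl4 and Rpl17 held 3 snoRNAs each, out of 28 in all. Exons of 19 members (24.1%) overlapped those of a gene on the other strand, beside 30.2% of all genes tested.

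Level and change were related to these features to different degrees across the 76 members outside the paralogs. Shorter transcripts had higher mean FPKM (Spearman rho -0.407 across genes), which touches the length correction used in FPKM. The log2 change was hardly related to length (rho 0.031) or to mean FPKM (rho 0.085). It was higher for transcripts of higher GC content (rho 0.416), and removing length and GC trends over all genes left a median of -0.18 and 0 passing members, with 23 (29.1%) at an unadjusted p below 0.05, beside 23.6% of all genes in that fit. Genes are not independent replicates, so these values only describe the members.

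Start regions of the members were read from RefSeq (GRCm38.p6), from 60 bases before to 20 after each annotated start. Of the 80 members, 60 had such a window, 11 of them with more than 1 start. Of 15 motifs looked at, the 4 described first here were kept after their shares were seen, and of these the longer ones were the 10-letter words found in the most members. CTTTC on the sense strand, a pyrimidine stretch like those at the start of ribosomal protein mRNAs, was found in 22 of 60 members (36.7%) beside 12.0% of 27025 genes with a window. CGGAAG on either strand, a core of sites for ETS family factors, was found in 22 of 60 members (36.7%) beside 9.31% of genes. The word CGTCACTTCC on either strand was found in 7 members (11.7%) beside 0.574% of genes, and TCTCGCGAGA, which is its own reverse complement, in 6 members (10%) beside 0.311% of genes. Both words were picked as those in the most members, so a higher share in members follows from the pick.

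Some of the other motifs were about as frequent in members as in all genes, or less so. TATAAA on the sense strand was found in 1.67% of members beside 3.84% of genes, CACGTG on either strand in 3.33% beside 3.05%, and CCAAT on either strand in 11.7% beside 15.0%. Others were more frequent in members. TATAAG on the sense strand was found in 8.33% beside 2.065%, GGGCGG on either strand in 33.3% beside 23.6%, and CTTCC on either strand in 58.3% beside 34.7%. The word CGTCACTTCC on either strand can share its last letters with CGGAAG read on the other strand. CTTTC is contained in none of the other motifs kept, but CTCTTTC and CTTTCC, which were also looked at, contain it. These shares describe letters in the windows and give no test.

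The windows shown are those of 4 members with a shared 10-letter word and of the paralog pairs Rps27l with Rps27 and Rpl39l with Rpl39, to set each paralog beside its partner. Capitals mark CTTTC on the sense strand and the other 3 motifs on either strand. Each is written 5′ to 3′ on the strand of the gene: Rpl26 at chr11:68901506-68901585 (plus), Rpl12 at chr2:32961652-32961731 (plus), Rps6 at chr4:86857348-86857427 (minus), Rpl41 at chr10:128549149-128549228 (minus), Rps27l at chr9:66946026-66946105 (plus), Rps27 at chr3:90213629-90213708 (minus), Rpl39l at chr16:10170168-10170247 (plus) and Rpl39 at chrX:37085203-37085282 (minus).
Rpl26: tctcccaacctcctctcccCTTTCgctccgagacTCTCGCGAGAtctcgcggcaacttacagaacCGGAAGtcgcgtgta
Rpl12: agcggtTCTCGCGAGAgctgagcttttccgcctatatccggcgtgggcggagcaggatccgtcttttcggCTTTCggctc
Rps6: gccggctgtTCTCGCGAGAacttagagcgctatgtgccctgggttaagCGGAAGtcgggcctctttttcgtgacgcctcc
Rpl41: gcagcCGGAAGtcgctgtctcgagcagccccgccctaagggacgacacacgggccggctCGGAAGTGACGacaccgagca
Rps27l: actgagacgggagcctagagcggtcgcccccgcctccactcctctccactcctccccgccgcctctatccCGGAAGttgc
Rps27: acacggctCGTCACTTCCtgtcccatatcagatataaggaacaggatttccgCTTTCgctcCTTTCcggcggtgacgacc
Rpl39l: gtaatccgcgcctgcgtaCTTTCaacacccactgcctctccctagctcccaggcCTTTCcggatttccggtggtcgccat
Rpl39: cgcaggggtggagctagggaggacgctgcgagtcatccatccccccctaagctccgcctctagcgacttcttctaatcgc

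The window of Rpl26 holds CTTTC, TCTCGCGAGA and CGGAAG, and that of Rpl39 holds none of the 4 motifs. Rpl39l and Rps27 each hold CTTTC at 2 places, while the first start of Rps27l holds CGGAAG and no CTTTC. Rpl26 measured 1935, 1921 and 2254 FPKM in cKO 1 to 3, against 2421, 2374 and 2116 FPKM in control 1 to 3 (log2 change -0.18). Rpl12 measured 1070.4, 1099 and 1269 FPKM in cKO 1 to 3, against 1224, 1216 and 1205 FPKM in control 1 to 3 (log2 change -0.09). Rps6, whose phosphorylation is a standard readout of mTOR signalling, measured 1611, 1603 and 1831 FPKM in cKO 1 to 3, against 1892, 1932 and 1742 FPKM in control 1 to 3 (log2 change -0.14). In all 3 the groups overlapped, with cKO 3 above control 3, and they were picked for their sequence after their values were seen.

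Few genes of the wider translation pathway passed the test. Of all genes tested, 2.09% fell, 2.24% rose and 41.5% had a log2 change below 0. Of 18 reference genes, 0 passed and 11 had a log2 change below 0 (median -0.05). Of 10 elongation factor genes tested, 0 passed and 9 had a log2 change below 0 (median -0.15). Eef1a1, the factor that brings aminoacyl-tRNA to the ribosome, measured 6987, 6939 and 7739 FPKM in cKO 1 to 3, against 7388, 7674 and 6848 FPKM in control 1 to 3 (log2 change -0.02), with overlapping groups. Of 31 initiation factor genes, 0 passed and 25 were below 0 (median -0.07). Pabpc1, the poly(A)-binding protein, measured 497, 370.0 and 432 FPKM in cKO 1 to 3, against 523, 529.8 and 469 FPKM in control 1 to 3 (log2 change -0.24, limma adjusted p = 0.277).

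Ribosome assembly and ribosomal RNA synthesis gave 1 passing gene. Of 40 ribosome assembly factor genes, 1 fell (2.5%, beside 2.09% of all genes tested), 0 rose and 29 were below 0 (median -0.11). The gene that fell was Nop56, a core protein of the box C/D particles that methylate ribosomal RNA, at 62.8, 69.0 and 70.8 FPKM in cKO 1 to 3, against 95.4, 89.4 and 83.7 FPKM in control 1 to 3 (log2 change -0.40, SE 0.08, limma adjusted p = 0.0449). Its exons overlap those of Idh3b on the other strand, and it passed without control 3 but in no other fit that left out a library. Of 15 RNA polymerase I genes, 0 passed and 8 were below 0 (median -0.01). Ubtf, which activates ribosomal RNA genes, measured 62.6, 52.2 and 55.5 FPKM in cKO 1 to 3, against 55.9, 50.3 and 48.0 FPKM in control 1 to 3.

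Regulators and mitochondrial counterparts completed the lists. Of 14 genes known to regulate ribosomal proteins, 0 passed and 8 were below 0 (median -0.02). Eif4ebp1, an mTOR target that restrains translation, measured 59.6, 53.5 and 72.9 FPKM in cKO 1 to 3, against 88.0, 88.3 and 74.5 FPKM in control 1 to 3, with no overlap (log2 change -0.43, SE 0.13, limma adjusted p = 0.0975). Of 6 noncoding or other snoRNA host genes, 0 passed and 4 were below 0; Gas5, whose transcript also starts with pyrimidines, measured 384, 289 and 451 FPKM in cKO 1 to 3, against 388, 431 and 323 FPKM in control 1 to 3. Of 76 mitochondrial ribosomal protein genes, 0 rose, 70 were below 0 (median -0.14) and 2 fell (2.63%, beside 2.09% of all genes tested). These were Mrpl42, at 76.1, 74.3 and 82.0 FPKM in cKO 1 to 3, against 99.0, 99.8 and 97.2 FPKM in control 1 to 3 (log2 change -0.35, limma adjusted p = 0.0427), and Mrpl33, at 79.0, 86.0 and 102 FPKM in cKO 1 to 3, against 129, 139 and 117 FPKM in control 1 to 3 (log2 change -0.52, limma adjusted p = 0.0493). Of the fits that left out 1 library, Mrpl42 passed in none, and Mrpl33 only in the fit without cKO 3. The summed level of the 76 genes was 3264 to 3629.5 FPKM in cKO libraries and 3661 to 3962 FPKM in control libraries, with cKO 3 just under control 3.

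**Figure D5:**
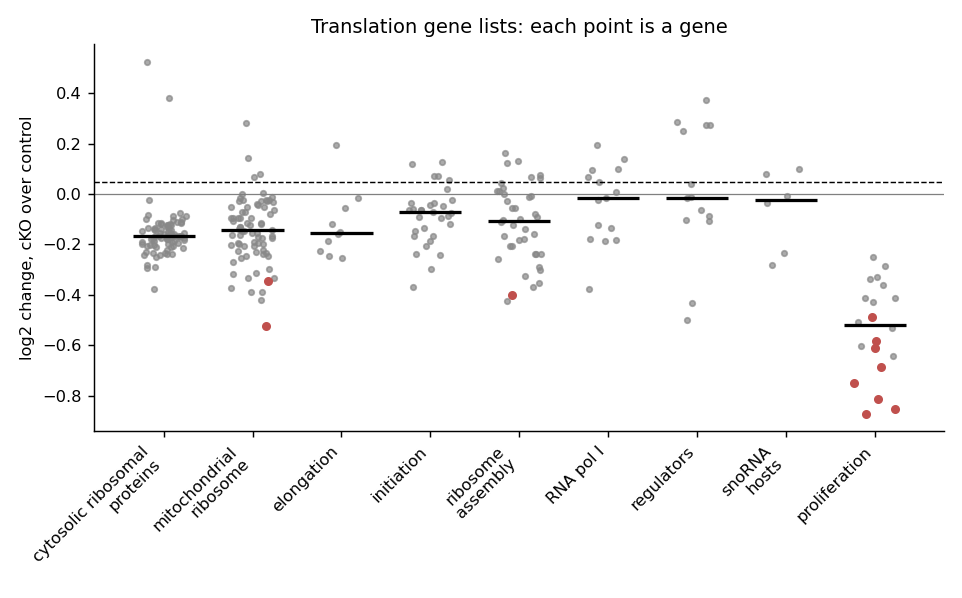
Each point is a gene's log2 change of cKO over control on log2(FPKM + 1), for the 79 ribosomal protein genes and 8 other lists; red points passed limma's test at an adjusted p below 0.05, short black lines are list medians and the dashed line is the median of all genes tested, 0.05. The ribosomal protein median is -0.17 (0.02 under quantile normalisation), the mitochondrial ribosomal median -0.14 and the proliferation median -0.52.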

How the data were processed

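The deposited table holds FPKM for 37924 Ensembl genes in 6 libraries. Per the submitters' processing notes, TopHat2 2.0, Cufflinks 2.0 and mm10 belong to the authors' processing; roles and order are unstated. Which annotation, strand setting, filters or scaling across libraries were applied is not given in the sources used here. FPKM divides by the library total, so abundant transcripts lower the values of others. Every value column was matched to a library by its title, and groups come from the genotype label.

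Genes with a mean of at least 0.5 FPKM were tested with limma 3.58.1 (R 4.3.3; lmFit followed by eBayes, trend on) applied to log2(FPKM + 1), all 6 libraries in 1 fit of 2 groups, with Benjamini-Hochberg adjustment over 14934 genes and a threshold of 0.05. Fold changes on that scale understate those of low genes. The words rose and fell are used of genes that passed. The code of the fit was run on simulated data whose normal noise followed the fit's own estimates of spread. That checks the code, not whether its assumptions hold for these libraries. P-values measure the spread between pools of animals.

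Depth was estimated from FPKM values below 0.15 read as 1 fragment, in genes with 1 transcript of at least 1500 bases, less 150 bases, and carries no interval. Coordinates (1-based), biotypes, snoRNAs and overlaps come from GENCODE M21, on the assembly of mm10, matched by Ensembl identifier for 14740 of the genes tested and all 80 members. Start windows come from RefSeq GRCm38.p6. Coding sequences were aligned with biopython 1.88.

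The members, lists and tests were chosen with earlier results of these data known. Named members are the 5 highest and 3 lowest means, the 3 largest log2 changes each way, the paralogs with their partners, and those said to be picked later. From each other list came up to 4 passing genes, or the 2 highest means; not every gene this admits is named, and a few genes are left unreported here. The 3 genes with a mean of at least 10 FPKM most correlated with the members are named in the closing section. The floxed gene's own values are not reported here, so the genotype labels were not checked with them. In all, 17 other settings were tried: other pseudocounts, filters, scalings, weights, robust eBayes and leaving out each library. A further 3 were added after the data were seen.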

Additional observations from a re-analysis of the deposited data

How the results depend on the processing

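No paired analysis was possible because the libraries carry no numbers shared between groups in the labels, only an order of deposit. Under quantile normalisation the median log2 change of the members became 0.015 and the ratio of their summed FPKM 1.01. This scaling can remove a shift shared by the most abundant genes, and 68 members were among the 100 genes of highest mean. Under it the log2 changes of Rpl23a (0.10), Rplp1 (0.16), Rps14 (0.12), Rps24 (0.038), Rps27 (0.025) and Rps29 (0.059) turned positive. Rps14 also turned positive with centring on reference genes (0.018), rescaling without mitochondrial-genome transcripts (0.035) or without ribosomal protein genes (0.063), and without control 1, control 2 or cKO 1, and ran from -0.22 (without cKO 2) to 0.25 (without cKO 1) with any 1 library left out; Rpl7l1 did so when rescaled without ribosomal protein genes (0.0096). With cKO 3 and control 3 both left out, the median was -0.28 and the ratio 0.828. That choice was made after the data were seen and widens the members' difference by construction. The cause of these shifts was not tested. The median log2 change was -0.23 when centred on the median of all genes, and -0.24 to -0.12 when any 1 library was left out. It was -0.12 when centred on the reference genes, -0.11 when rescaled without mitochondrial-genome transcripts and -0.078 when rescaled without ribosomal protein genes. In the same order the ratio of summed FPKM was 0.921, 0.931 and 0.949, and 76, 76 and 74 of the 79 members were below 0.

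No member rose under any of the 20 alternatives. The number that fell was 0, except that Rps27l fell with median centring (1 member, adjusted p = 0.0387) and with array weights (1 member, adjusted p = 0.0272), limma in both. At an unadjusted p below 0.05 the members numbered 12 (15.2%) as reported, beside 24.3% of all genes. Over the alternatives the fewest were 1 (1.27%) with quantile normalisation, beside 23.5%. The most were 62 (78.5%) with cKO 3 and control 3 left out, beside 25.8%. The share of all genes ran from 10.6% with no filter on low values (3.80% of members) to 30.8% with array weights (25.3% of members). The pathway lists had 3 genes that fell, and 0 with no filter on low values, 5 with quantile normalisation, 11 with median centring, 0 with reference centring, 1 without ribosomal protein genes, 18 with array weights, 0 to 3 with a library left out, and 0 with the controls set against cKO 1. In place of 0 genes, 1 (Mtor) rose with a pseudocount of 0.1, with a mean of at least 2 FPKM, without ribosomal protein genes, with array weights and with robust eBayes. Of 379 repeats over 19 named genes, 349 kept direction and call, 13 lost the call (all Nop56), 4 gained it and 13 turned sign. Among the 19 only Nop56 passed as reported, so no other gene could lose a call. Mrpl33 and Mrpl42, which also passed as reported, were not among the 19. Mrpl33 did not pass with quantile normalisation, nor did Mrpl42 when rescaled without ribosomal protein genes. Depth limits the precision of Rpl10l, at 14.3 to 72.4 estimated fragments per library, and of Rpl3l.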

Other observations

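Outside the members, the genes whose profile over the 6 libraries was most like the mean profile of the members were Cox7c, Depdc7 and Cln3, out of 7482 genes with a mean of at least 10 FPKM. Cox7c, a subunit of cytochrome c oxidase, measured 299, 304 and 351 FPKM in cKO 1 to 3, against 370.3, 378 and 338 FPKM in control 1 to 3 (r = 0.995 over 6 libraries). Depdc7 had an r of 0.993 and measured 7.31, 8.10 and 12.8 FPKM in cKO 1 to 3, against 14.6, 17.0 and 11.8 FPKM in control 1 to 3. Cln3, a lysosomal membrane protein gene, had an r of 0.990. None of the 3 passed the test, and all shared the libraries and their scaling with the members.

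The table also lists 218 rows named as ribosomal protein pseudogenes. They summed to 47.1, 46.6 and 46.5 FPKM in cKO 1 to 3, against 47.7, 55.4 and 71.1 FPKM in control 1 to 3. Control 3 was the highest of all libraries, while it was the lowest control for the members in 58 of 76.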
